A study of Mus musculus with 9 samples.

Results

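The beta-2 integrin chains and the genes that overlap Itgad were followed through RNA sequencing of mouse splenic type 2 conventional dendritic cells (cDC2s). The members were 7 of the 14209 genes in the table: the alpha chain genes Itgal, Itgam, Itgax and Itgad, their common beta chain gene Itgb2, and Cox6a2 and 4931431B13Rik, which lie across Itgad on the opposite strand. They were picked with their levels in Gα13-deficient cells known, so every value from that group is given for them as a description with no test, and only the 5 integrin chains were tested, in CD97-deficient against wild-type (WT) cells. All 7 passed the filter on low counts, which kept 12043 genes, but Cox6a2 and 4931431B13Rik did so only through the Gα13-deficient group.

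The study set 3 groups of 3 libraries side by side, all from spleens of C57BL/6 mice. In the Gα13-deficient group, Gna13 fl/fl was deleted by a Cre recombinase under the CD11c promoter. Gna13 encodes a G protein subunit that acts on RhoA. The genotype label of these libraries also names Adgre5-/-, while the design text gives CD11c-Cre Gna13fl/fl alone. The CD97-deficient group (labelled CD97 KO, or Adgre5-/- in the design text) lacks an adhesion G protein-coupled receptor whose gene is listed under its older symbol Cd97. The third group was WT. CD11c is the product of Itgax, itself a member, so deletion is expected in any cell type in which that promoter is active, and the Gα13-deficient cells carry a transgene built on a member's promoter. The sources used here do not say whether the other mice carried Cre, how old the mice were or how the cells were sorted. An effect of the transgene and an effect of Gna13 loss therefore cannot be told apart.

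Integrins are paired adhesion receptors of an alpha and a beta chain. The beta-2 chain, CD18, pairs with CD11a (Itgal), CD11b (Itgam), CD11c (Itgax) or CD11d (Itgad), and it is needed for all of these receptors to reach the surface of leukocytes. CD11a/CD18, or LFA-1, binds ICAM proteins and holds T cells to antigen-presenting cells. CD11b/CD18 and CD11c/CD18 also bind complement fragment iC3b, and both chains are used to recognise dendritic cells in the spleen. CD11d is best known from macrophages of the splenic red pulp. Integrin binding is switched on from inside the cell by Rap1, talin and kindlin, which act on the beta chain tail.

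Itgam, Itgax and Itgad form a tandem cluster on mouse chromosome 7 (mm10, GENCODE release M21, all on the plus strand). Itgam lies at chr7:128062640-128118491, Itgax at chr7:128129547-128150657 and Itgad at chr7:128154376-128223816, with gaps of 11055 bp and 3718 bp between them. Itgal lies apart on the same chromosome, at chr7:127296260-127335138, which ends 727.5 kb before Itgam. Itgb2 lies on chromosome 10, at chr10:77530252-77565708. On the minus strand, 4931431B13Rik (chr7:128192050-128203328), a noncoding transcript gene, lies inside the Itgad span, and so does Cox6a2 (chr7:128205435-128206387). Exons of Itgad and Cox6a2 share 70 bp, 10.3% of the Cox6a2 exons, and the genes run tail to tail in the RefSeq models. Exons of Itgad and 4931431B13Rik share 388 bp, 27.0% of the 4931431B13Rik exons. The sources used here do not say whether reads were counted by strand, so reads from these shared bases cannot be told apart.

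The coding sequences of the alpha chains were compared because near copies can exchange reads. Itgad and Itgax matched at 73.8% of aligned coding bases, against 65.8% for Itgad and Itgam, 65.3% for Itgax and Itgam and 58.3% for Itgad and Itgal. Itgad shared 384 of its 3557 words of 50 bases with Itgax (10.8%) and 0 with Itgam or Itgal. The longest run common to Itgad and Itgax was 188 bases, spread over Itgad exons 12 to 14 and Itgax exons 11 to 13, while the longest run common to Itgad and Itgam was 16 bases. The stretch of 248 coding bases around the run is shown for the 3 clustered chains, read from the GENCODE transcripts. Capitals mark the run in Itgad and Itgax, and in Itgam each base equal to the aligned base of Itgad.
Itgad: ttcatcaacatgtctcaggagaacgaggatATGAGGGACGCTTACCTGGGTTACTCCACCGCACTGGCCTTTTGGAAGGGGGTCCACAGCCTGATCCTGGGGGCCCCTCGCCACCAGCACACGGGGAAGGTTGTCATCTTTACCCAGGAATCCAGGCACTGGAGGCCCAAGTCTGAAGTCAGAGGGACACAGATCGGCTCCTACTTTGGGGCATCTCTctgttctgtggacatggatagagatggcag
Itgax: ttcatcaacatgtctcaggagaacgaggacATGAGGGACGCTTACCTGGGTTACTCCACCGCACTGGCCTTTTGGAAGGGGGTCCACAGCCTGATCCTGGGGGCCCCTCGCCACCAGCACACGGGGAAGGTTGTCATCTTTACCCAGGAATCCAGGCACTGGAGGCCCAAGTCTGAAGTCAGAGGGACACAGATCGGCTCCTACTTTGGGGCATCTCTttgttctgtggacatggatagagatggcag
Itgam: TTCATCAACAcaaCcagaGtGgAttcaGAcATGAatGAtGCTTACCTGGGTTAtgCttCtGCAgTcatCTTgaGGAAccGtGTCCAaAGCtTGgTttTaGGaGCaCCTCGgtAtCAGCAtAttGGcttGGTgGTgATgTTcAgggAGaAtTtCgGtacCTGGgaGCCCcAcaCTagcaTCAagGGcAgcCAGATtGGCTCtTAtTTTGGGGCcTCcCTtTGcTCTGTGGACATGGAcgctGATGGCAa
Itgax also matched Itgad at 29 of the 30 bases before the run and 29 of the 30 after it. Itgam matched Itgad at 121 of the 188 bases of the run (64.4%). A read of 50 bases from inside the run, or from any other of the 384 shared words, fits both Itgad and Itgax. The sources used here do not say how such reads were counted. Counts of Itgad and Itgax are uncertain to that extent.

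Promoters were read for the members found in the RefSeq table (GRCm38.p6), Itgam and Itgax. The Itgax window is the start region of the gene whose promoter drives the Cre. The motif searched was GAGGAA on both strands, the purine-rich core bound by the myeloid factor PU.1. It occurs in 28.3% of all 32851 promoter windows of 300 bases, and capitals mark its matches on either strand.
Itgam, chr7:128062390-128062689, plus strand: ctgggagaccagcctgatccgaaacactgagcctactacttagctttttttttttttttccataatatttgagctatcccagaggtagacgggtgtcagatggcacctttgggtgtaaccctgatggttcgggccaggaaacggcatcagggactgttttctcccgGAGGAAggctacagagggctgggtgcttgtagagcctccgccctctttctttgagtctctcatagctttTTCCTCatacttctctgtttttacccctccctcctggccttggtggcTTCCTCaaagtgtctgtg
Itgax, chr7:128129300-128129599, plus strand: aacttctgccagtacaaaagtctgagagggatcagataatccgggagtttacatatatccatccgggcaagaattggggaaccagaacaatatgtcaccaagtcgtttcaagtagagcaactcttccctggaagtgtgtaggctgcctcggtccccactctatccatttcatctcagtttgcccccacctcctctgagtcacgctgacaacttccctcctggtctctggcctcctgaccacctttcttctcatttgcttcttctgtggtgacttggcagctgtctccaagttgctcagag
The Itgam window held 3 matches, which do not overlap one another, and the Itgax window held 0.

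The libraries held 5679946 to 13904646 counts each. Levels are given as CPM, counts divided by the library size after TMM scaling, and 3 counts correspond to 0.216 to 0.528 CPM. The labels do not state that replicates came from different mice. The p-values therefore reflect the variation among these libraries, part of which may be technical. Gna13 had 113, 96.7 and 91.7 CPM in Gα13-deficient, 227, 217 and 246 in CD97-deficient and 226, 228 and 186 in WT libraries, and in Gα13-deficient against WT cells its log2 fold change was -1.09 ± 0.11 (SE, edgeR's quasi-likelihood test, adjusted p = 6.84e-05). Cd97 had 1144, 1223 and 1015 CPM in Gα13-deficient, 725, 839 and 437 in CD97-deficient and 1505, 899 and 1298 in WT libraries. All CD97-deficient libraries lay below all others, and the Gα13-deficient libraries lay inside the WT range. Cd97 did not pass in CD97-deficient cells (log2 fold change -0.89 ± 0.28, edgeR adjusted p = 0.105) nor in Gα13-deficient cells (-0.13, adjusted p = 0.816). Genes that mark cDC2s were present in every library. Sirpa ran from 736 to 845 CPM in Gα13-deficient, 824 to 923 in CD97-deficient and 853 to 926 in WT libraries, and none of the 15 cDC2 markers was at 0 in all libraries of any group. The cDC2 markers summed to 2468 to 2896 CPM in Gα13-deficient, 2447 to 2771 in CD97-deficient and 3090.3 to 3814 in WT libraries. In Gα13-deficient against WT cells 5 of the 15 fell and 1 rose, 40% of the list beside 11.0% of all genes tested. Over the alternatives 1 to 7 of the 15 passed, beside 693 to 1581 of all genes. In CD97-deficient against WT cells 1 of the 15 fell, 6.67% beside 8.53% of all genes. There 0 to 4 passed over the alternatives, beside 222 to 1328 of all genes. The median log2 fold change of the list was -0.22 in Gα13-deficient and -0.24 in CD97-deficient against WT cells, and 0 passed between the mutant groups. Markers of cDC1s summed to 1938 to 2035 CPM in Gα13-deficient, 2108 to 2218 in CD97-deficient and 1997 to 2126 in WT libraries. Wdfy4 alone had 1463 to 1588, 1635 to 1750 and 1526 to 1776 CPM in these groups. In Gα13-deficient against WT cells Xcr1 and Naaa rose and Batf3 fell, 30% of the 10 tested beside 11.0% of all genes. In CD97-deficient against WT cells Xcr1 and Naaa rose, 20% beside 8.53% of all genes. Markers of B, T and NK cells summed to 97.1 to 104, 92.7 to 152 and 64.5 to 92.7 CPM in the same order of groups. Of the 10 tested, Klrk1 rose in Gα13-deficient against WT cells (log2 fold change 0.97, edgeR adjusted p = 0.0188), 10% beside 11.0% of all genes. In CD97-deficient against WT cells 0 passed, beside 8.53% of all genes, and Klrk1 had 0.80 (adjusted p = 0.0546). The part of such cells in the results on the members was not tested. A female pattern of Xist and Y-linked genes was seen in 5 libraries: Gα13-deficient replicate 2, all CD97-deficient replicates and WT replicate 2.

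Itgax was the most abundant alpha chain and Itgad the least abundant in every group. Per kilobase of transcript, Itgax averaged 458 CPM per kb in Gα13-deficient, 348 in CD97-deficient and 362 in WT cells. Itgb2 followed at 308, 296 and 278 CPM per kb in the same order of groups, and Itgam at 175, 138 and 130.5. Itgal averaged 63.4, 61.0 and 51.5 CPM per kb, and Itgad 48.5, 14 and 11. Cox6a2 (13.9, 1.26 and 1.81 CPM per kb) and 4931431B13Rik (1.74, 0.169 and 0.134) lay far below the integrin chains. Itgal and Itgad, neighbours in this order, came closest in Gα13-deficient cells, where Itgal ran from 54.7 to 72.8 and Itgad from 44.9 to 54.1 CPM per kb. They did not overlap in any group.

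Itgad showed the widest difference of the integrin chains. It had 178, 215 and 184 CPM in Gα13-deficient libraries, 79.5, 35.3 and 51.8 CPM in CD97-deficient libraries and 27.8, 60.7 and 42.3 CPM in WT libraries. All 3 Gα13-deficient libraries lay above all 6 others, and the CD97-deficient and WT libraries overlapped. The means were 192 ± 19.4, 55.5 ± 22.4 and 43.6 ± 16.5 CPM (SD, n = 3 each). The log2 fold change was 2.15 ± 0.37 for Gα13-deficient against WT cells (SE), or 4.43-fold, and 1.79 ± 0.36 for Gα13-deficient against CD97-deficient cells. These comparisons share the Gα13-deficient libraries. The spread between libraries was wider where the level was low, with an SD of log2 CPM of 0.142 in Gα13-deficient, 0.584 in CD97-deficient and 0.560 in WT cells.

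Itgad is known from red pulp macrophages, so the level of their markers is given beside it. The 26 macrophage markers in the table summed to 1413 to 1929 CPM in Gα13-deficient, 1216 to 3149 in CD97-deficient and 1062 to 2492 in WT libraries, and none was at 0 in all libraries of a group. In Gα13-deficient against WT cells 2 of the 26 fell (Emr1 and Cd209b) and 0 rose, 7.69% of the list beside 11.0% of all genes. Of the 26 fold changes 16 were above 1. Their mean log2 CPM, relative to the mean of all 9 libraries, was 0.08, 0.26 and -0.32 in Gα13-deficient replicates 1 to 3, 1.0, -0.70 and 0.56 in CD97-deficient replicates and -0.56, 0.69 and -1.0 in WT replicates. Inside each group, the Gα13-deficient one included, the library with the most Itgad was the one with the highest macrophage level. The Gα13-deficient libraries lay inside the range of the others on the macrophage level and above all of them on Itgad. With the macrophage level in the fit, the Itgad log2 fold change was 2.04 against WT and 2.0 against CD97-deficient cells. In bulk RNA a different number of cells of a type and a different amount of RNA per cell cannot be told apart.

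**Figure D1:**
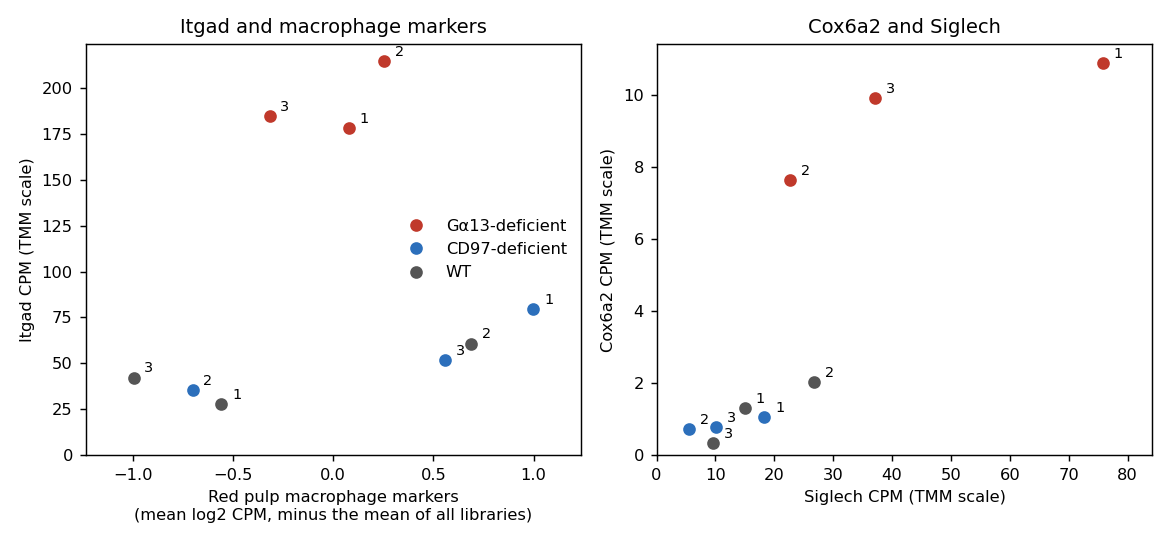
Left, Itgad CPM (TMM scale) against the mean log2 CPM of the red pulp macrophage markers relative to the mean of all libraries; right, Cox6a2 CPM against Siglech CPM, a plasmacytoid dendritic cell marker. Each point is 1 library, numbered by replicate and coloured by group. The Gα13-deficient libraries have 178 to 215 CPM of Itgad at macrophage levels from -0.32 to 0.26, inside the range of the other libraries, and Siglech spans 22.8 to 75.8 CPM in Gα13-deficient, 5.56 to 18.3 in CD97-deficient and 9.67 to 26.7 in WT libraries.

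Cox6a2 encodes a subunit of cytochrome c oxidase whose best known site is heart and skeletal muscle. It had 96, 44 and 139 counts in Gα13-deficient libraries, 9, 5 and 7 in CD97-deficient libraries and 12, 15 and 2 in WT libraries. On the CPM scale these were 10.9, 7.64 and 9.92, against 1.06, 0.732 and 0.781 in CD97-deficient and 1.31, 2.04 and 0.339 in WT libraries. The lowest Gα13-deficient library was above every other library, and the CD97-deficient values fell inside the WT range. The fitted log2 fold change was 2.89 ± 0.41 against WT (SE) and 3.44 ± 0.43 against CD97-deficient cells. Summed over libraries, 279 counts stood against 29 in WT, a ratio of rates of 7.77 with a 95% exact interval of 5.29 to 11.8, and against 21 in CD97-deficient cells, a ratio of 11.2 (7.16 to 18.3). These intervals, and all others given for counts, cover counting error only.

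4931431B13Rik had the fewest reads of the members. Its counts were 16, 13 and 27 in Gα13-deficient libraries, 4, 0 and 1 in CD97-deficient libraries and 3, 1 and 0 in WT libraries. The CPM values were 1.82, 2.26 and 1.93 in Gα13-deficient, 0.473, 0 and 0.112 in CD97-deficient and 0.327, 0.136 and 0 in WT libraries, where a count of 0 allows up to 0.441 CPM in CD97-deficient replicate 2 and 0.511 CPM in WT replicate 3. No Gα13-deficient library overlapped another group. The summed counts were 56 against 4 in WT, a ratio of rates of 11.3 (95% exact interval 4.18 to 42.9), and against 5 in CD97-deficient cells, a ratio of 9.41 (3.80 to 30.1). The fitted log2 fold changes, 3.40 ± 0.81 and 3.19 ± 0.77 (SE), rest on these few reads.

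Since both genes share exon bases with Itgad, their counts were set against those of Itgad within each library. Per 100 counts of Itgad, Cox6a2 had 6.11, 3.56 and 5.38 counts in Gα13-deficient, 1.34, 2.07 and 1.51 in CD97-deficient and 4.71, 3.36 and 0.803 in WT libraries. The ratio of the Gα13-deficient libraries was above that of all CD97-deficient libraries and overlapped the WT range. In WT replicate 1 the 95% exact interval was 2.40 to 8.36, in WT replicate 3 0.0967 to 2.93. For 4931431B13Rik the ratio was 1.02, 1.05 and 1.04 per 100 counts of Itgad in Gα13-deficient libraries, 0.594, 0 and 0.216 in CD97-deficient libraries and 1.18, 0.224 and 0 in WT libraries. The 3 Gα13-deficient values differed by less than their counting intervals (0.559 to 1.81 in replicate 2), and WT replicate 1 was as high. The part of Itgad reads in the counts of both genes was not tested.

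Cox6a2 RNA is also known from mouse plasmacytoid dendritic cells, and markers of these cells were read beside it. The 21 markers in the table, Cox6a2 not among them, summed to 964 to 1186 CPM in Gα13-deficient, 850.4 to 926 in CD97-deficient and 658 to 897 in WT libraries, and none was at 0 in all libraries of a group. Siglech, a defining marker, had 75.8, 22.8 and 37.2 CPM in Gα13-deficient, 18.3, 5.56 and 10.2 in CD97-deficient and 15.0, 26.7 and 9.67 in WT libraries. The summed markers of every Gα13-deficient library were above those of every other library, while Siglech overlapped between Gα13-deficient and WT libraries. Most of each sum came from Cd7, Runx2, Spib and Tcf4. In Gα13-deficient replicate 2 these had 261, 207, 146 and 133 CPM, in CD97-deficient replicate 2 279, 171, 151 and 130, and in WT replicate 2 195, 230, 131 and 124. All 19 tested markers had a log2 fold change above 0 in Gα13-deficient against WT cells, with a median of 0.74. Of the 19, 3 rose in Gα13-deficient against WT cells, 15.8% of those tested beside 11.0% of all genes. Among them were Cd7 (log2 fold change 0.38, edgeR adjusted p = 0.00948) and Tcf4 (0.40, 0.0149). Cd7 also rose in CD97-deficient against WT cells (0.40, adjusted p = 0.0101), and Tcf4 did not pass there (0.24, 0.135). Cd7 was the 1 marker of the 19 that passed in that comparison, 5.26% beside 8.53% of all genes. Log2 fold changes there were above 0 for 10 of the 19, with a median of 0.08. In Gα13-deficient against WT cells 1 (without Gα13-deficient replicate 1), 5 (without CD97-deficient replicate 2) and 12 markers (without WT replicate 2) passed. Over all genes 693 to 1581 passed in that comparison over the 17 alternatives. In the main fit it was 1322 of 12043 genes. The part of such cells in the Cox6a2 level was not tested.

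Itgax, the chain that names CD11c, had 1898, 1928 and 1729.6 CPM in Gα13-deficient libraries, 1341, 1461 and 1427 CPM in CD97-deficient libraries and 1452, 1363 and 1584 CPM in WT libraries. Every Gα13-deficient library lay above the 6 others. The means were 1852 ± 107, 1409.6 ± 62.0 and 1466 ± 111 CPM (SD, n = 3 each). The log2 fold change was 0.34 ± 0.08 against WT (SE), or 1.26-fold, and 0.39 ± 0.08 against CD97-deficient cells.

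Itgam, which encodes CD11b, followed a like pattern at a lower level. It had 629, 652 and 662 CPM in Gα13-deficient, 520.1, 532 and 485 CPM in CD97-deficient and 473, 468 and 507 CPM in WT libraries. The Gα13-deficient libraries again lay above all others, and the other groups overlapped. The log2 fold change was 0.42 ± 0.07 against WT (SE), or 1.34-fold, and 0.34 ± 0.07 against CD97-deficient cells. Itgam is also a gene of monocytes and neutrophils, whose 12 markers in the table summed to 909 to 1465 CPM in Gα13-deficient, 653 to 791 in CD97-deficient and 501 to 908 in WT libraries. Lyz2 alone had 595 to 1036, 461 to 574 and 320 to 659 CPM in these groups. Of 10 tested 2 rose in Gα13-deficient against WT cells, Cx3cr1 and Treml2, 20% beside 11.0% of all genes, and 0 to 5 passed over the alternatives. Log2 fold changes were above 0 for 9 of the 10, with a median of 0.91. Ly6c2, which is in the plasmacytoid list too, had 2.03 (edgeR adjusted p = 0.0694) and Lyz2 1.01 (0.128). S100a9, a defining neutrophil gene, had 1, 4 and 6 counts in Gα13-deficient, 2, 0 and 3 in CD97-deficient and 2, 1 and 0 in WT libraries. The part of such cells in the Itgam level was not tested.

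Per 100 counts of Itgax, Itgam had 33.1, 33.8 and 38.3 counts in Gα13-deficient, 38.8, 36.4 and 34.0 in CD97-deficient and 32.6, 34.3 and 32.0 in WT libraries, so this ratio overlapped between the groups. Itgad had 9.38, 11.1 and 10.7 counts per 100 of Itgax in Gα13-deficient, 5.93, 2.42 and 3.63 in CD97-deficient and 1.91, 4.45 and 2.67 in WT libraries. The Gα13-deficient ratio was above all others. The part of reads from the bases shared with Itgax in the Itgad counts was not tested.

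Itgal, the alpha chain of LFA-1, had 284, 330.2 and 248 CPM in Gα13-deficient libraries, 256, 291 and 283 CPM in CD97-deficient libraries and 247, 225 and 229 CPM in WT libraries. Both mutant groups lay above WT, with Gα13-deficient replicate 3 only just above WT replicate 1, and they overlapped each other. The log2 fold change was 0.30 ± 0.10 for Gα13-deficient against WT (SE) and 0.05 ± 0.10 for Gα13-deficient against CD97-deficient cells.

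Itgb2, the shared beta chain, varied least. It had 900.1, 922 and 926 CPM in Gα13-deficient, 883, 848 and 904 CPM in CD97-deficient and 863, 767 and 843 CPM in WT libraries. The Gα13-deficient libraries overlapped the CD97-deficient ones and lay above WT. The log2 fold change was 0.15 ± 0.07 against WT (SE) and 0.06 ± 0.07 against CD97-deficient cells.

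**Figure D2:**
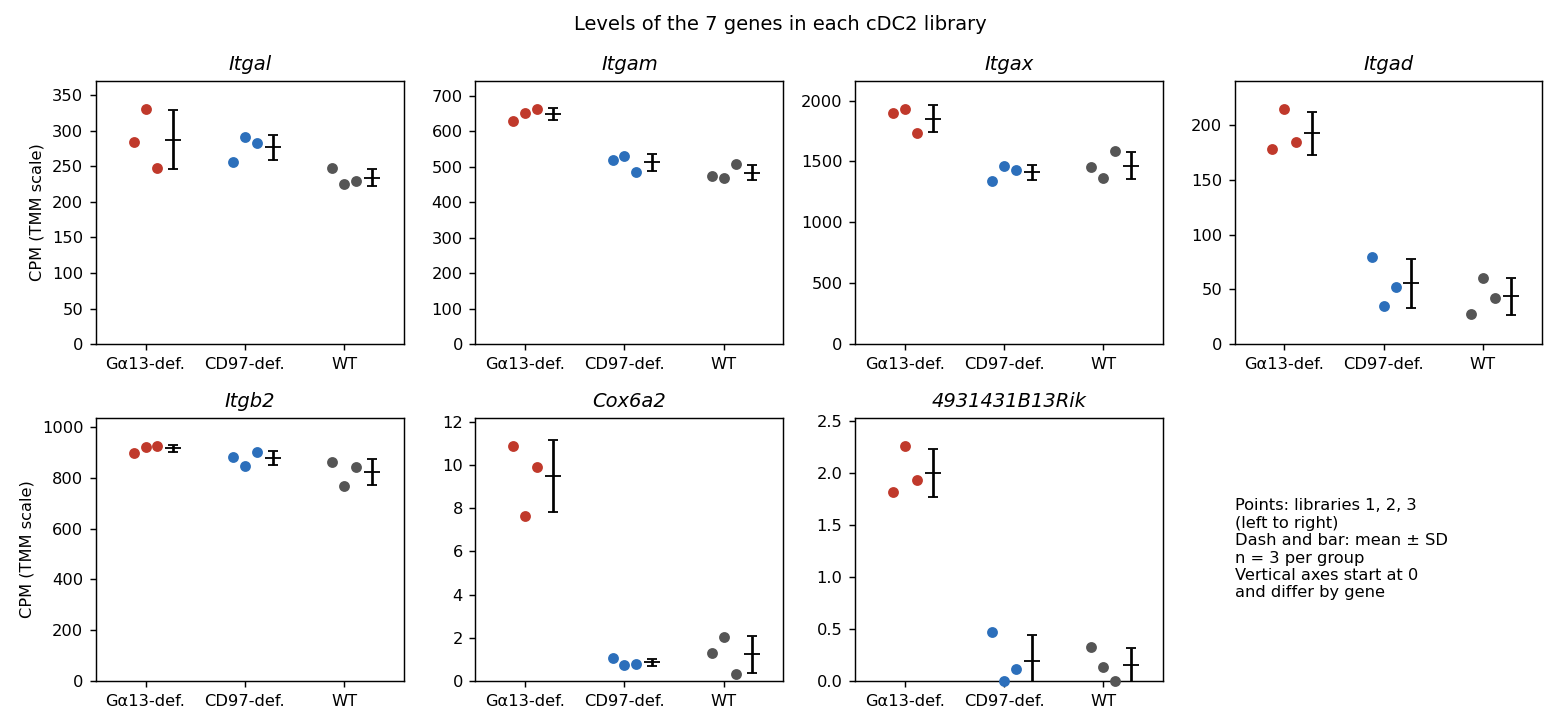
Level of each of the 7 genes in CPM (TMM scale), with 1 panel per gene and Gα13-deficient, CD97-deficient and WT libraries from left to right. Points are single libraries, and the dash and bar beside them are the mean ± SD (n = 3). Itgad at 178 to 215 CPM, Cox6a2 at 7.64 to 10.9 CPM and 4931431B13Rik at 1.82 to 2.26 CPM in Gα13-deficient cells stand clear of the other libraries, while Itgb2 spans 767 to 926 CPM over all 9.

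The Gα13-deficient libraries did not overlap those of WT for 7 of 7 members, beside 29.6% of all genes tested, and did not overlap the CD97-deficient libraries for 5 of 7, beside 13.1%. The members were chosen with these values known, so nothing is read from the counts. Over all genes, 11.0% passed edgeR's threshold in Gα13-deficient against WT cells and 0.0498% between the mutant groups. The median log2 fold change of all genes was -0.01 in Gα13-deficient against WT cells.

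In CD97-deficient against WT cells 0 of the 5 integrin chains passed, beside 8.53% of all genes tested (1027 of 12043). This comparison shares its WT libraries with the one on which the members were picked. At an unadjusted p under 0.05 1 chain passed, beside 2946 of 12043 genes, and 0 did with DESeq2. Itgal came nearest, with a log2 fold change of 0.24 ± 0.10 (SE, 95% interval 0.03 to 0.46, edgeR's quasi-likelihood test, unadjusted p = 0.0278, adjusted p = 0.146), and its libraries were higher in 3 of 3 CD97-deficient replicates. It was the 1 member whose groups did not overlap, beside 28.2% of all genes. Itgam (0.09 ± 0.07, adjusted p = 0.506), Itgb2 (0.09 ± 0.07, adjusted p = 0.480) and Itgax (-0.06 ± 0.08, adjusted p = 0.704) did not pass. Their 95% intervals ran from -0.07 to 0.24, from -0.07 to 0.25 and from -0.23 to 0.12 on the log2 scale.

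For Itgad, whose libraries varied more, the same test was less precise. Itgad had a log2 fold change of 0.36 ± 0.37 (SE, 95% interval -0.51 to 1.24, edgeR adjusted p = 0.602) in CD97-deficient against WT cells, and 0.03 with the macrophage level in the fit. A doubling of Itgad lies inside its interval. Cox6a2 and 4931431B13Rik were too low for a test between these groups. Their summed counts gave ratios of rates of 0.696 (95% exact interval 0.377 to 1.26) and 1.20 (0.259 to 6.05) for CD97-deficient against WT cells. All 3 CD97-deficient libraries had the female pattern, against 1 of 3 WT libraries, and with that pattern in the fit 0 of the 5 chains passed and the Itgal log2 fold change was 0.16.

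The makeup of the alpha chain RNA was compared as shares of the summed CPM per kb of the 4 chains. Itgad took 6.51% ± 0.463 in Gα13-deficient, 2.51% ± 1.07 in CD97-deficient and 1.99% ± 0.826 in WT cells (SD, n = 3 each). Itgax took 61.5% ± 1.25, 62.0% ± 1.40 and 65.2% ± 1.32 in the same groups, and Itgam 23.5% ± 1.5, 24.6% ± 1.11 and 23.5% ± 0.376. Itgal took 8.49% ± 0.808 in Gα13-deficient, 10.9% ± 0.470 in CD97-deficient and 9.30% ± 0.692 in WT cells. The share of Itgad was thus higher in Gα13-deficient libraries without becoming large, and that of Itgam overlapped between the groups. The summed alpha chains stood at 2.46, 2.51 and 2.27 times Itgb2 per kb in Gα13-deficient, 1.85, 2.02 and 1.84 times in CD97-deficient and 1.89, 2.04 and 2.08 times in WT libraries. Every Gα13-deficient library had more alpha chain RNA per beta chain RNA than every other library, which describes chosen members and was not tested.

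**Figure D3:**
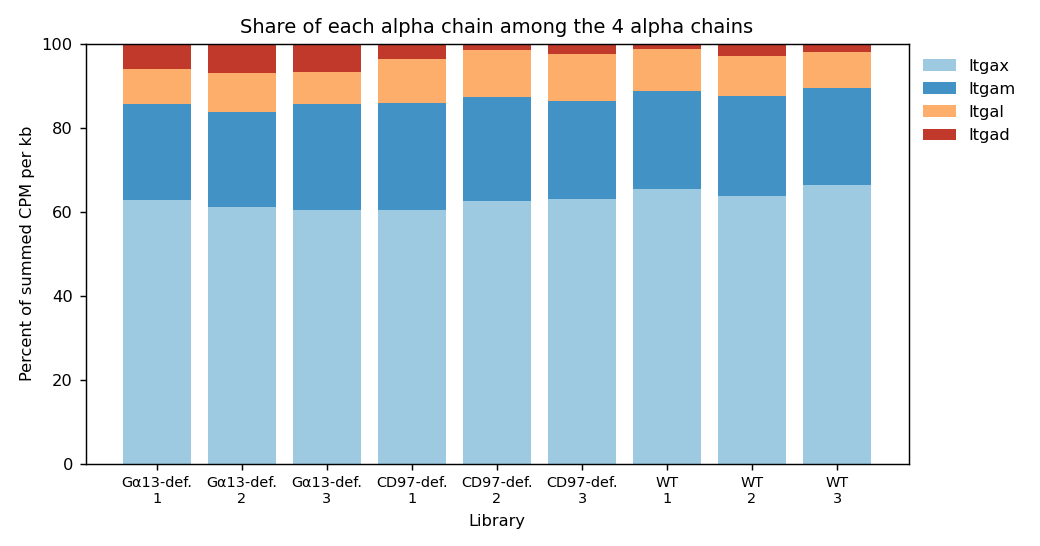
Share of Itgax, Itgam, Itgal and Itgad in the summed CPM per kb of the 4 alpha chains, in percent, with 1 stacked bar per library. The Itgad share at the top of each bar is 6.02 to 6.94% in Gα13-deficient, 1.54 to 3.66% in CD97-deficient and 1.28 to 2.90% in WT libraries.

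The genes on either side of the cluster were not chosen on their values and were tested. Within 500 kb of Itgad the table lists 31 genes, 5 of them members, and 24 of the 26 others passed the filter. None of the 24 passed edgeR's test in Gα13-deficient against WT cells (0 at an unadjusted p under 0.05 and 0 with DESeq2), beside 11.0% of all genes. None passed in CD97-deficient against WT cells (3 at an unadjusted p under 0.05, 0 with DESeq2; 1 without WT replicate 3) or between the mutant groups (0 and 0). Their log2 fold changes in Gα13-deficient against WT cells ran from -0.82 (Tgfb1i1, an adhesion adaptor of focal contacts) to 0.41 (Hsd3b7, a bile acid enzyme), and their median was -0.02. Among these genes the members' fold changes are not tested against those of their neighbours.

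The nearest tested neighbours included Pycard, Prss36 and Myst1 upstream, and downstream 9130023H24Rik, Armc5, Tgfb1i1 and BC017158. Pycard, the inflammasome adaptor ASC, ends 68.8 kb before Itgam and had a log2 fold change of 0.30 ± 0.17 in Gα13-deficient against WT cells (SE, edgeR adjusted p = 0.291). 9130023H24Rik, on the minus strand, has its near end 10.6 kb after the GENCODE span of Itgad and 28.1 kb after Cox6a2. Its log2 fold change was -0.06 ± 0.23 (edgeR adjusted p = 0.897). Armc5 had -0.02 ± 0.19 (adjusted p = 0.961), Tgfb1i1 -0.82 ± 0.41 (0.224) and BC017158 0.33 ± 0.21 (0.341). Prss36 (-0.17, edgeR adjusted p = 0.845) and Myst1 (-0.16, 0.606) did not pass either.

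**Figure D4:**
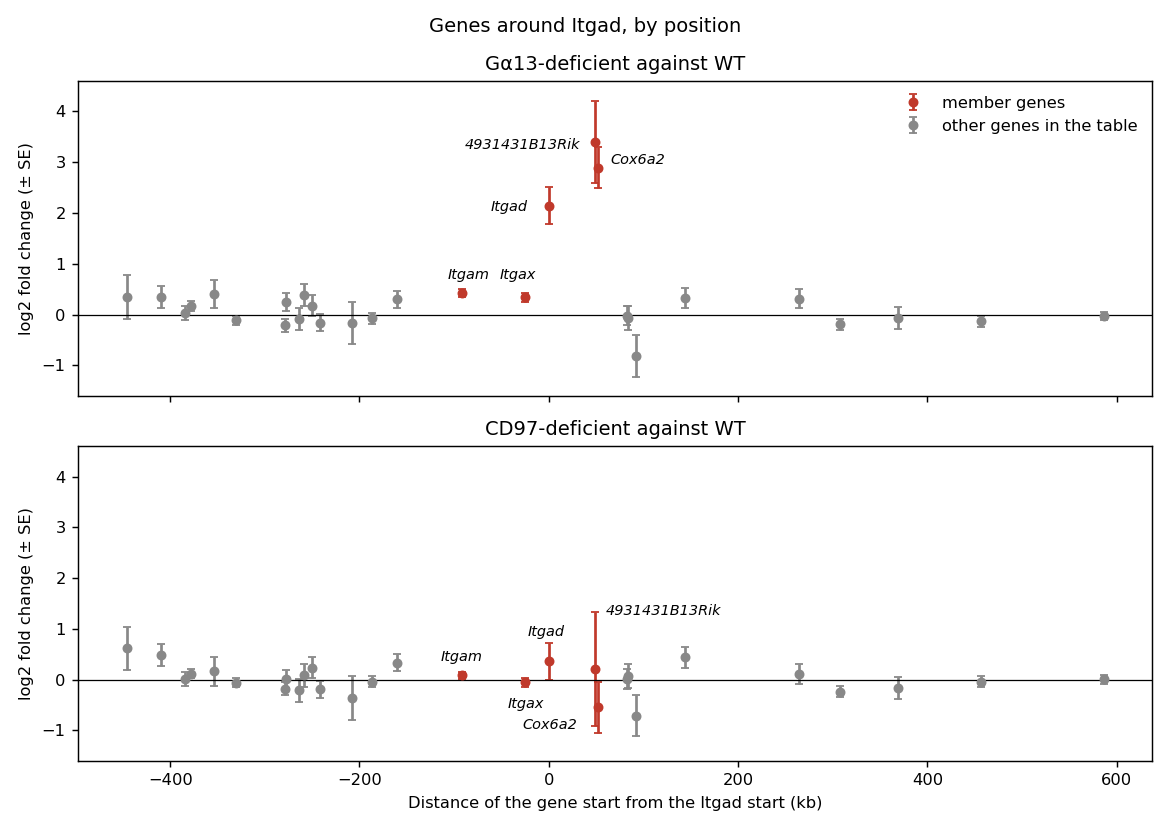
Log2 fold change (± SE) of the tested genes near Itgad, against the distance of each gene's start from the Itgad start in kb, for Gα13-deficient against WT cells above and CD97-deficient against WT cells below. Red points are members and grey points other genes. In the upper panel Itgad (2.15), Cox6a2 (2.89) and 4931431B13Rik (3.40) stand above a row of genes between -0.82 and 0.42, and in the lower panel all lie between -0.71 and 0.61.

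Genes that activate, anchor or engage these integrins were taken from 2 lists of 63 genes in all, of which 55 were tested. In Gα13-deficient against WT cells 4 rose and 1 fell, 9.09% of the list beside 11.0% of all genes, with a list median of -0.01. In CD97-deficient against WT cells 2 rose and 1 fell, 5.45% of the list beside 8.53% of all genes, with a list median of 0.02. Between the mutant groups 0 passed (7 at an unadjusted p under 0.05, 1 with DESeq2). In this fit these shares lie near or below those of all genes. With DESeq2, 11 of the 55 passed in Gα13-deficient and 7 in CD97-deficient against WT cells. Over all genes at most 1581 and 1328 passed in these comparisons in any alternative. The comparisons with WT share the WT libraries.

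Flna, filamin A, which binds integrin beta tails and actin, had 867, 927 and 947 CPM in Gα13-deficient, 937, 858 and 957 CPM in CD97-deficient and 499, 614 and 533 CPM in WT libraries. Both mutant groups lay above WT, and Flna rose by 0.74 ± 0.09 on the log2 scale in Gα13-deficient (SE, edgeR adjusted p = 0.000172) and by 0.74 ± 0.09 in CD97-deficient cells (adjusted p = 0.000584). Rap1gap2, a negative regulator of Rap1, averaged 93 ± 4.63 CPM in Gα13-deficient, 84.0 ± 8.30 in CD97-deficient and 55.9 ± 10.5 in WT cells (SD, n = 3 each). It rose by 0.73 in Gα13-deficient (edgeR adjusted p = 0.00193) and by 0.59 in CD97-deficient cells (adjusted p = 0.0109), where the call was lost with the sex pattern in the fit (0.43, adjusted p = 0.143) and without CD97-deficient replicate 3 (0.51, 0.0661) or WT replicate 1 (0.47, 0.0526).

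In Gα13-deficient cells Vcl, vinculin, also rose (0.48, edgeR adjusted p = 0.00504), with 72.6 ± 1.81 CPM against 52.1 ± 3.99 in WT cells (SD, n = 3 each). Actn4, an actin cross-linker, rose too (0.49, adjusted p = 0.00513), with 141 ± 8.71 against 100.4 ± 10.6 CPM. CD97-deficient cells had 60.1 ± 1.87 CPM of Vcl and 125 ± 8.35 of Actn4. Their log2 fold changes against WT were 0.21 (edgeR adjusted p = 0.196) and 0.31 (0.0610). Neither gene passed between the mutant groups (Vcl 0.27, adjusted p = 0.669, and Actn4 0.18, 0.870). Fyb, the adaptor ADAP that couples immune receptors to integrins, averaged 1187 ± 67.4 CPM in Gα13-deficient, 1047 ± 113 in CD97-deficient and 1515 ± 219 in WT cells. In CD97-deficient cells Fyb fell by 0.53 on the log2 scale (edgeR adjusted p = 0.00735). The log2 fold change was -0.49 with the sex pattern in the fit (adjusted p = 0.0835) and -0.45 without CD97-deficient replicate 3 (0.0504). In Gα13-deficient cells it fell by 0.35 (adjusted p = 0.0453), a call that 10 of 17 alternatives lost, with adjusted p up to 0.161 without WT replicate 1 (log2 fold change -0.23). The activators that bind the beta chain directly did not pass: talin (Tln1) had a log2 fold change of 0.21 ± 0.08 (edgeR adjusted p = 0.0851) and kindlin-3 (Fermt3) -0.07 ± 0.12 (0.764) in Gα13-deficient against WT cells.

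Of the 13 ligand genes tested, 0 passed in any comparison. Icam1, the chief ligand of LFA-1, had 168 ± 39.5 CPM in Gα13-deficient, 169 ± 14.1 in CD97-deficient and 207 ± 34.5 in WT cells (SD, n = 3 each), with log2 fold changes of -0.31 (edgeR adjusted p = 0.278) and -0.29 (0.310) against WT. C3, the source of iC3b, had 48.5, 35.8 and 43.1 CPM in Gα13-deficient, 35.3, 19.2 and 40.2 CPM in CD97-deficient and 13.8, 32.0 and 13.6 CPM in WT libraries, and its log2 fold change of 1.10 ± 0.39 in Gα13-deficient against WT cells did not pass (SE, edgeR adjusted p = 0.127). Vcam1, whose human protein is bound by CD11d/CD18 and which marks red pulp macrophages, ran from 185 to 317 CPM in Gα13-deficient, 98.1 to 693 in CD97-deficient and 61.1 to 519 in WT libraries.

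Genes whose level followed that of 3 members most closely were named by Pearson's r of log2 CPM over the 9 libraries, as a description. For Itgad these were Matn1 (0.96), Plcb4 (0.94), Atp2b4 (0.94), Tcf12 (0.94) and 2900010M23Rik (0.93). For Itgax they were Plcb1 (0.95), Tbx3 (0.93), Naf1 (0.92), Ppp1r18 (0.92) and Sap30 (0.90), and for Itgb2 Rrp1b (0.95), Sh3gl1 (0.94), Zfp180 (0.94), Sec23b (0.94) and Pcid2 (0.93). The 9 points fall into the 3 genotype groups and share library and depth. Plcb1 and Plcb4, phospholipase C beta genes, are also among the 6 genes that passed between the mutant groups, where their log2 fold changes were 7.17 and 3.22.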

How the data were processed

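The deposited table gives the authors' raw read counts, 1 row a gene symbol. The submitters' processing notes list STAR, HTSeq, DESeq2 and the build mm10, with no versions. Library preparation followed standard Illumina methods, per the labels' protocols. The table has no gene with a total under 10 counts. Symbols were matched to GENCODE M21, 12797 directly and 1219 through a RefSeq synonym, with 193 unmatched. WT columns were tied to samples by their source names, since columns and titles number them differently.

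The test was edgeR's quasi-likelihood F-test (edgeR 4.0.16, R 4.3.3) with TMM factors, robust estimation and the default filter, which left 12043 genes and dropped 2166. One model with genotype as its only factor took the 9 libraries, at a common BCV of 0.15. P-values were adjusted by Benjamini-Hochberg across the genes tested (threshold 0.05), and standard errors come from the F statistic. The test was tried on simulated data with known changes. DESeq2 1.42.0 was an alternative. CPM per kb uses the GENCODE transcript with the longest coding sequence.

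The members and the gene lists were chosen with earlier results of these data known. Genes were named by rule: all members, the 4 tested neighbours nearest on each side, up to 4 called list genes per comparison, the targeted genes, and the 5 genes most like Itgad, Itgax and Itgb2. Flna, Rap1gap2, Vcl, Actn4 and Fyb follow from it, apart from Fyb in Gα13-deficient cells. Tln1, Fermt3, Icam1, C3, Vcam1, Hsd3b7 and the cell type markers were named after their values were seen. Some genes that the rule covers are not reported here. Same-number libraries of the Gα13-deficient and WT groups deviated together in 3 of 3 pairs (correlations 0.111 to 0.179, against -0.120 to -0.021 for other numbers). This pairing comes from the data and is not stated in the labels. It uses the numbers of the titles. By the numbers of the count columns, Gα13-deficient 2 and WT 2 correlated at -0.120 and Gα13-deficient 3 and WT 3 at -0.064. By title, replicate 2 was also the only library with the female pattern in either group. The other comparisons had 0 of 3 such pairs.

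Alternatives were other size factors, no filter, fits of the 2 groups compared with and without the replicate block, the sex pattern or the macrophage level as covariate, and leaving out each library, 17 in all.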

Additional observations from a re-analysis of the deposited data

How the results depend on the processing

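None of the 5 integrin chains passed in CD97-deficient against WT cells in any of the 17 alternatives. There 2 members had log2 fold changes of the other sign: Itgax 0.0022 without WT replicate 3 (-0.11 to 0.0022 without single libraries), and 4931431B13Rik -0.34 with the macrophage level, -1.29 without CD97-deficient replicate 1 and -0.22 without WT replicate 3 (-1.29 to 1.28). Cox6a2 and 4931431B13Rik dropped out of the 2 fits of these groups alone, so 15 alternatives gave them a value and their fitted changes there are no test. In Gα13-deficient against WT cells the log2 fold changes kept their sign, from 1.90 to 2.47 for Itgad, 2.52 to 3.39 for Cox6a2, 2.97 to 4.47 for 4931431B13Rik (4.47 without WT replicate 1), 0.29 to 0.40 for Itgax, 0.40 to 0.46 for Itgam, 0.19 to 0.39 for Itgal and 0.10 to 0.19 for Itgb2. Against CD97-deficient cells Itgad ran from 1.56 to 2.14, and Itgal was -0.06 without Gα13-deficient replicate 2.

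Counts over all genes moved more. In CD97-deficient against WT cells 222 genes passed with the sex pattern, 636 with the macrophage level and 364 to 1271 without single libraries (364 without CD97-deficient replicate 3, 529 without CD97-deficient replicate 1, 472 without WT replicate 1). In Gα13-deficient against WT cells 693 to 1459 passed without single libraries (693 without Gα13-deficient replicate 2). Between the mutant groups 11 passed without the filter, 57 with DESeq2, 53 with only the 2 groups in the fit, 14 with the macrophage level and 4 to 25 without single libraries (25 without Gα13-deficient replicate 3 or WT replicate 2, 14 without WT replicate 1, 12 without WT replicate 3). Of the integrin pathway genes, in CD97-deficient against WT cells 5 passed with library totals, 7 with DESeq2, 1 with the sex pattern and 1 to 6 without single libraries (1 without CD97-deficient replicate 3, 6 without WT replicate 2). In Gα13-deficient against WT cells 11 of the 55 tested passed with library totals and 11 with DESeq2. Over all genes no alternative called more than 1581 there, or more than 1328 in CD97-deficient against WT cells. Between the mutant groups 1 pathway gene passed with DESeq2 and 0 to 1 without single libraries (1 without Gα13-deficient replicate 3). Neighbourhood genes numbered 0 to 1 in CD97-deficient against WT cells without single libraries. The causes were not tested.

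With the replicate block 73 genes passed between the mutant groups and 1188 in Gα13-deficient against WT cells, and with it none of the 5 chains and no neighbour passed in CD97-deficient against WT cells. The block lost no call of Flna, Rap1gap2, Vcl, Actn4 or Fyb. Depth limits 4931431B13Rik and Cox6a2 in CD97-deficient and WT cells, where the counts were 0 to 15 per library.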
